A study of Mus musculus with 44 samples.

Results

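Hepatocyte nuclei were set against all nuclei of the same livers in control mice, the low fat diet group of a diet study of steatohepatitis. The comparison took every library of the series that came from a control mouse of the FPC arm, which is 8 of the 44 libraries: 4 of hepatocyte nuclei and 4 of whole liver nuclei, 1 of each from each of 4 mice (FPC_6816, FPC_6852, FPC_6952 and FPC_6953), paired by mouse. All 8 came from male HEP-INTACT mice that had been kept on a low fat diet for 20 weeks, the time over which the other mice of that arm ate the FPC diet. Hepatocyte nuclei were captured on beads by a tag on the nucleus, and the whole liver nuclei of the same mice were the input. The labels used here do not say which promoter or recombinase directs the tag to hepatocytes, so the cell type of the captured nuclei was checked below by marker genes. Controls of the other arm, male HEP-INTACT mice on the low fat diet for 7 weeks beside mice on CDAHFD, served as a second set of 8 libraries for comparison.

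Hepatocytes make up most of the mass of the liver and carry out its synthesis of plasma proteins, bile acids, urea and glucose. Around them lie the sinusoidal endothelial cells that line the capillaries, the stellate cells that store vitamin A and can lay down matrix, the resident macrophages called Kupffer cells, lymphocytes, and the cholangiocytes of the bile ducts. INTACT, a method that captures nuclei by a tag made in chosen cells, pulls the nuclei of a single cell type out of a tissue without sorting whole cells. RNA in a nucleus is largely newly made and still holds introns, so the levels below describe nuclear transcripts, not the cytoplasmic mRNA pool.

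Total nuclear RNA was sequenced without selection for polyadenylated RNA. The 8 libraries held 16825945 to 31969887 counts, and 14690 to 15594 of 20105 annotated RefSeq genes had at least 1 count in a library. Levels are given as CPM, counts scaled to the same library total, after TMM scaling, which sets libraries to a common level over most genes, in the order of mice FPC_6816, FPC_6852, FPC_6952 and FPC_6953. CPM is not divided by gene length, and all levels below are compared between fractions within a gene. Differences are log2 fold changes of hepatocyte over whole liver nuclei, from edgeR's quasi-likelihood test with the mouse as a block, and a gene was called at a Benjamini-Hochberg adjusted p below 0.05 over all 12833 genes tested; the 7272 genes with fewer counts were not tested. The replicates are separate mice. In bulk libraries such as these, fewer nuclei of a type and less RNA per nucleus cannot be told apart.

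The large differences between hepatocyte and whole liver nuclei ran in 1 direction. The whole liver nuclei include the hepatocyte nuclei. The design therefore limits how far a hepatocyte gene can rise, but not how far genes of other cells can fall. In hepatocyte nuclei 2376 genes were called lower (18.5% of those tested) and 835 higher (6.51%), so that 26% of all calls were higher. The falls were large: 1857 genes (14.5%) were called at least 2-fold lower, which is 78.2% of the genes called lower, and the median of the genes called lower was -2.48. The rises were small: no gene was called at least 2-fold higher (0%) by edgeR, 1 gene passed that size at an unadjusted p below 0.05, and DESeq2 called none; leaving out mouse FPC_6816 gave 1 such gene and leaving out FPC_6952 gave 2. The genes called higher had a median of 0.21, with 90% of them between 0.16 and 0.33, and none passed 0.64. Of all genes tested, 57.4% lay between 0 and 0.5, and the median was 0.04. Direction was shared by all 4 mice for 99.8% of the genes called lower and 99% of those called higher.

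The number of small rises followed the scaling and the mice used, whereas the large falls did not. With DESeq2's size factors in edgeR 1565 genes were higher, 40.5% of calls; with library totals alone 209 were (7.54%); and with libraries scaled to the sum of 22 hepatocyte markers 35 were (1.2%) with a median of all genes of -0.08, against 0.04 with TMM scaling. Without mouse FPC_6852 the count of higher genes was 53, without FPC_6952 it was 297, without FPC_6953 it was 307 and without FPC_6816 it was 1165. Genes at least 2-fold lower numbered 1829 to 1882 in those 4 fits and 1842 to 1922 under the 3 other scalings. Of the 21 genes named below as called higher, 21 kept the call with DESeq2's size factors, 10 with library totals alone, 2 with scaling to the hepatocyte markers and 4 without mouse FPC_6852. Calls of small rises thus depended both on the common level that the scaling sets and on the mice used.

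**Figure D1:**
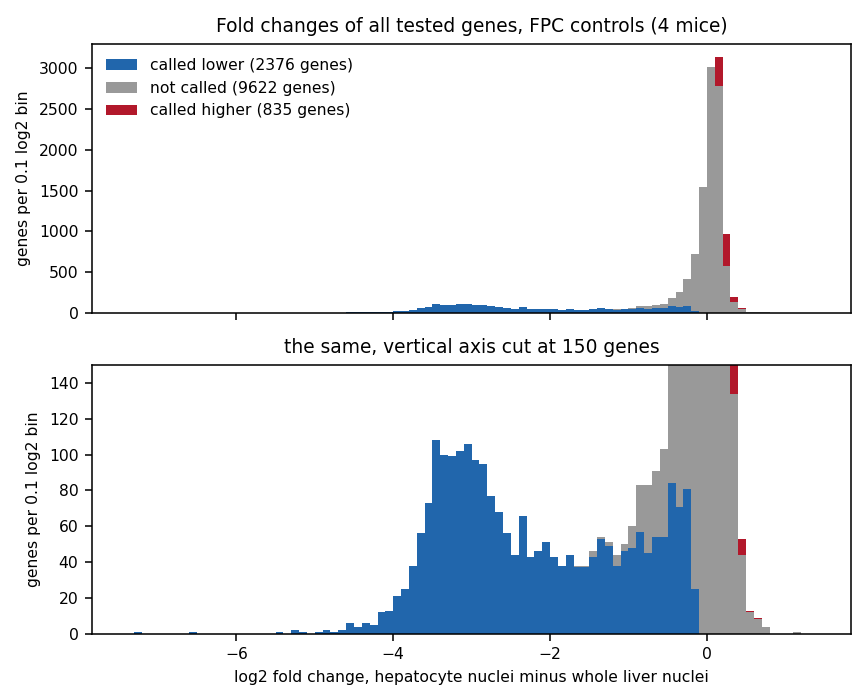
Number of tested genes in each 0.1-wide bin of the log2 fold change of hepatocyte over whole liver nuclei in the 4 FPC control mice, in full (top) and with the vertical axis stopped at 150 genes (bottom). Many of the 2376 genes called lower form a second mound between about -4 and -2.5, and the 835 called higher sit at the right edge of the central peak.

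Genes at least 2-fold lower were many but carried little of the RNA. They took 0.353% to 0.436% of the counts in the hepatocyte libraries, against 1.99% to 2.65% in the whole liver libraries. By size, 727 tested genes lay between -4 and -3, 643 between -3 and -2, and 446 between -2 and -1, while 59 lay at or below -4. The genes called lower had a median whole liver level of 5.0 CPM and a median annotated length of 44.9 kb. Over all genes tested those medians were 17.3 CPM and 27.0 kb, and over genes called higher 140 CPM and 36.3 kb. The share called lower was 47.8% among genes with a mean below 1 CPM and 2.16% among those above 300 CPM. The filter kept a gene with enough counts in as many libraries as 1 fraction holds. Genes of low mean could thus enter through the whole liver libraries alone, so the share at low level depends on that filter. By length, the share called lower was 7.85% among genes shorter than 5 kb and 40.0% among those longer than 200 kb.

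Hepatocyte markers had nearly the same level in both fractions. Of the 22 markers on the list, 8 were called higher and none lower, with a median of 0.15 (0.09 to 0.17 by mouse). Alb, which encodes serum albumin, had 1633.9, 3219.7, 2096.0 and 3275.9 CPM in hepatocyte nuclei, against 1993.3, 3452.2, 2276.2 and 3193.9 CPM in whole liver nuclei. Its groups overlapped, and the difference was not called (-0.12, SE 0.06, adjusted p = 0.18 by edgeR), although Alb was called lower with library totals alone and with scaling to the hepatocyte markers. Serpinc1, which encodes antithrombin, had 789, 789, 710 and 765 CPM in hepatocyte nuclei, against 705, 643, 628 and 654 CPM in whole liver nuclei. The groups did not overlap, and the rise of 0.22 (SE 0.05) was called with an adjusted p of 0.0078 by edgeR. Hnf4a, the nuclear receptor that maintains hepatocyte identity, averaged 463 ± 56.1 CPM in hepatocyte nuclei and 405 ± 72.9 CPM in whole liver nuclei (SD, n = 4 each), and was higher in each of the 4 mice by a mean of 0.20. Apob, the structural protein of very low density lipoprotein, was higher in 4 of 4 mice without being called (0.15, SE 0.05). Summed over the list, levels ran from 21063.5 to 34346.0 CPM in hepatocyte nuclei and from 20674.9 to 29553.5 CPM in whole liver nuclei, so each hepatocyte library held 102% to 116% of the level of its own mouse's whole liver library.

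The spread between mice in several metabolic genes was far larger than the difference between fractions, and both fractions of a mouse shared it. Pck1, the cytosolic enzyme of gluconeogenesis, had 120, 995, 79.5 and 1523.5 CPM in hepatocyte nuclei, against 98.8, 799, 78.6 and 1266.1 CPM in whole liver nuclei. Mice FPC_6852 and FPC_6953 were high and mice FPC_6816 and FPC_6952 low in either fraction. G6pc, the last enzyme of glucose release, followed the same mice, with 188, 991, 92.5 and 2135.5 CPM in hepatocyte nuclei, against 160, 822, 84.0 and 1785.1 CPM in whole liver nuclei. Within mice both were called higher, Pck1 by 0.22 and G6pc by 0.23 (SE 0.05). The epidermal growth factor receptor gene Egfr was also high in mice FPC_6852 and FPC_6953, at 2180.4, 10015.6, 1399.5 and 10750.9 CPM in hepatocyte nuclei, against 2069.0, 9088.3, 1244.3 and 8999.5 CPM in whole liver nuclei.

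Lists of hepatocyte functions had medians near 0, as the markers had. Across 17 lists with 311 distinct tested genes, the marker list included, 78 genes were called higher (25.1%, against 6.51% of all genes tested) and 11 lower (3.54%, against 18.5%), and the list medians ran from -0.06 to 0.19. Over all genes the share called higher rose with level, to 18.8% at means of 100 to 300 CPM and 34.7% above 300 CPM. The lists were not set against genes of like level. Of the 17 medians 16 were above 0 here, 13 were with library totals alone, and 10 were with scaling to the hepatocyte markers, where they ran from -0.17 to 0.07. The median of -0.06 was that of the female-biased list, in which 0 of 8 tested genes were higher and 1 was lower. That gene was Cux2, a repressor known for female bias in liver, at 1.45 ± 0.694 CPM in hepatocyte nuclei and 8.93 ± 0.222 CPM in whole liver nuclei of these males. The list of urea cycle, gluconeogenesis and amino acid genes had the most calls, with 11 of 24 higher and a median of 0.19, among them Arg1, the arginase of the urea cycle (0.25, SE 0.04), and Got1, a transaminase (0.21). Bile acid genes had 8 of 19 tested members higher and none lower. Abcg5, a sterol exporter, averaged 280 ± 32.9 CPM in hepatocyte nuclei and 222 ± 14.2 CPM in whole liver nuclei (0.33, SE 0.06), and Nr0b2, the repressor SHP, rose by the same 0.33 (SE 0.07). Cyp7a1, whose product starts bile acid synthesis, averaged 122 ± 64.7 CPM in hepatocyte nuclei and 109 ± 52.8 CPM in whole liver nuclei and was not called.

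Complement and coagulation genes had 9 of 28 members higher (32.1%, against 6.51% of all genes tested) and none lower, with a median of 0.14. Beside this and the shares below, 18.8% of all genes tested were called higher at means of 100 to 300 CPM and 34.7% above 300 CPM. These lists, too, were not set against genes of like level. Cholesterol synthesis genes had 7 of 22 higher (31.8%) and none lower, with a median of 0.16. Sqle, the squalene epoxidase, rose by 0.30 (SE 0.06). Among cytochrome P450 and conjugation genes 6 of 23 were higher (26.1%), including Por, the reductase that feeds electrons to the P450 enzymes (0.18, SE 0.06). Of 22 genes for fatty acid oxidation 4 rose (18.2%) and none fell. Of 23 liver transcription factors 4 rose (17.4%), with Foxa3, a forkhead factor of endoderm, at 0.32 (SE 0.07). The periportal list had 4 members higher and 1 lower, and the pericentral list 0 of 16 tested members higher and 1 lower; the fall in the first was Ctsc, a lysosomal protease (-0.66, SE 0.09). In the second it was Nkd1, an inhibitor that WNT signalling induces, at 10.3 ± 1.1 CPM in hepatocyte nuclei and 25.5 ± 0.844 CPM in whole liver nuclei (-1.31, SE 0.09). Glul and Lgr5, further pericentral genes, were not called (0.04 and 0.15).

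A few abundant genes of hepatocyte and general lists were called lower in hepatocyte nuclei. Scd1, the stearoyl-CoA desaturase, had 264, 218, 171 and 370 CPM in hepatocyte nuclei, against 416, 303, 254 and 446 CPM in whole liver nuclei. It fell in each of the 4 mice, by a mean of 0.49 on the log2 scale (SE 0.07, adjusted p = 0.00043 by edgeR), although the groups overlapped. Apoa2 and Apoa1, apolipoproteins of high density lipoprotein, differed by -0.46 (SE 0.06) and -0.29 (SE 0.06). Fth1, the ferritin heavy chain, differed by -0.27 (SE 0.08), and Calr, a chaperone of the endoplasmic reticulum, by -0.24 (SE 0.06). Of 12 alternatives Scd1 and Apoa2 lost the call in 1 each, the fit with no mouse block, whereas Apoa1 and Calr lost it in 5 each and Fth1 in 8. Apoa1 was not called without mouse FPC_6852, FPC_6952 or FPC_6953, Calr without FPC_6952 or FPC_6953, and Fth1 without FPC_6816, FPC_6952 or FPC_6953. None of these 3 was called with no mouse block or with all 22 FPC libraries, DESeq2 called neither Calr nor Fth1, and Fth1 was also not called with DESeq2's size factors in edgeR or with no filter on low counts. The values of other cell types' markers stand beside these falls in the next paragraphs, and their part in them was not tested.

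Endothelial genes were depleted in hepatocyte nuclei. All 22 sinusoidal endothelial markers were tested and all 22 were called lower, 21 of them at least 2-fold, with a median of -3.30 (-3.59 to -3.15 by mouse), beside 0.04 over all genes. For this and the list counts below, 18.5% of all genes tested were called lower and 6.51% higher. The share called lower was 47.8% at means below 1 CPM and 39.2% at 1 to 3 CPM. Markers of low level could pass the filter through the whole liver libraries alone, so the shares of tested members called lower depend on it. The lists were not set against genes of like level. Stab2, the hyaluronan scavenger receptor of these cells, had 48.3, 41.5, 33.4 and 37.5 CPM in hepatocyte nuclei, against 502, 488, 363 and 429 CPM in whole liver nuclei. The hepatocyte libraries held 9.02% of the whole liver mean, with no overlap (-3.47, SE 0.06, adjusted p = 7.2e-09 by edgeR). Kdr, the main receptor for vascular endothelial growth factor, averaged 6.15 ± 0.814 CPM in hepatocyte nuclei and 61.1 ± 8.5 CPM in whole liver nuclei (-3.31, SE 0.08). The sum of the list was 239 to 317 CPM in hepatocyte nuclei and 1307.0 to 1793.5 CPM in whole liver nuclei, or 14.9% to 19.9% of the whole liver value of the same mouse.

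Some members kept much more of their level than Stab2. F8, coagulation factor VIII, had 49.0, 56.2, 56.6 and 50.9 CPM in hepatocyte nuclei, against 186, 184, 126 and 127 CPM in whole liver nuclei (-1.53, SE 0.12). Gata4, a zinc finger factor of sinusoidal endothelium that hepatocytes also express, had 116, 61.4, 107 and 73.4 CPM in hepatocyte nuclei, against 140, 96.3, 133 and 96.3 CPM in whole liver nuclei (-0.40, SE 0.07). F8 levels did not overlap between fractions; Gata4 levels did. Of 11 tested large-vessel endothelial markers 10 were lower, with a median of -2.83, among them Vwf, von Willebrand factor, at 0.818 ± 0.126 CPM in hepatocyte nuclei and 5.8 ± 0.33 CPM in whole liver nuclei.

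Stellate markers were lower throughout, by somewhat different amounts. All 16 tested of 17 were called at least 2-fold lower, with a median of -2.83. Dcn, the matrix proteoglycan decorin, had 3.7, 3.41, 3.01 and 2.95 CPM in hepatocyte nuclei, against 25.6, 26.2, 18.0 and 20.9 CPM in whole liver nuclei (-2.78, SE 0.10). Reln, a secreted glycoprotein used as a stellate marker, had 50.1, 49.7, 91.3 and 43.4 CPM in hepatocyte nuclei, against 198, 197, 199 and 160 CPM in whole liver nuclei (-1.74, SE 0.14). The value of 91.3 CPM in mouse FPC_6952 was the highest of its group, and no hepatocyte library reached a whole liver library. Smooth muscle genes such as Acta2, alpha smooth muscle actin, were at 0.182 ± 0.14 CPM in hepatocyte nuclei and 2.83 ± 1.11 CPM in whole liver nuclei, and 9 of 10 tested members of that list were lower.

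Among the cell type lists with more than 1 tested member, Kupffer cell and B lymphocyte markers had the lowest medians. Of 14 Kupffer markers 13 were called lower, all at least 2-fold, with a median of -3.40, and their sum was 14.9 to 19.7 CPM in hepatocyte nuclei and 144 to 231 CPM in whole liver nuclei. Clec4f, the lectin that marks Kupffer cells in mice, had 2.22, 2.39, 2.08 and 2.29 CPM in hepatocyte nuclei, against 30.2, 28.0, 26.9 and 29.2 CPM in whole liver nuclei (-3.67, SE 0.09). Of 11 tested B lymphocyte markers 10 were lower, with a median of -3.44. Pax5, the factor that commits cells to the B lineage, had 1.21, 0.78, 0.842 and 0.608 CPM in hepatocyte nuclei, against 14.7, 11.5, 10.8 and 9.06 CPM in whole liver nuclei (-3.73, SE 0.13). In hepatocyte nuclei Clec4f kept 7.86% and Pax5 7.47% of the whole liver mean.

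T lymphocyte markers were lower for 8 of 10 tested genes, with a median of -3.33, Bcl11b at -3.46 (SE 0.21) among them. Themis, which acts in T cell selection, stood apart at 38.4, 45.3, 15.0 and 5.56 CPM in hepatocyte nuclei, against 49.2, 49.7, 13.9 and 8.94 CPM in whole liver nuclei. Its level followed the mouse, not the fraction, and the difference was not called (-0.23, SE 0.11). Of 12 measured natural killer and innate lymphoid markers 8 were not tested. The 4 tested were all lower, including Itga1, an integrin of many cell types, by only -0.36. Neutrophil, mast cell, erythroid and Schwann cell lists had 1 to 3 tested members each, too few counts for a statement on those cells. Ccr2, the monocyte chemokine receptor, had 2 counts over all hepatocyte libraries and 84 over all whole liver libraries, 37.3-fold lower with a 95% counting interval of 10 to 313. Trem2, a macrophage receptor for lipids, had 0 counts in hepatocyte nuclei and 20 in whole liver nuclei, at least 5.92-fold lower at a floor of 3 counts over the group.

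**Figure D2:**
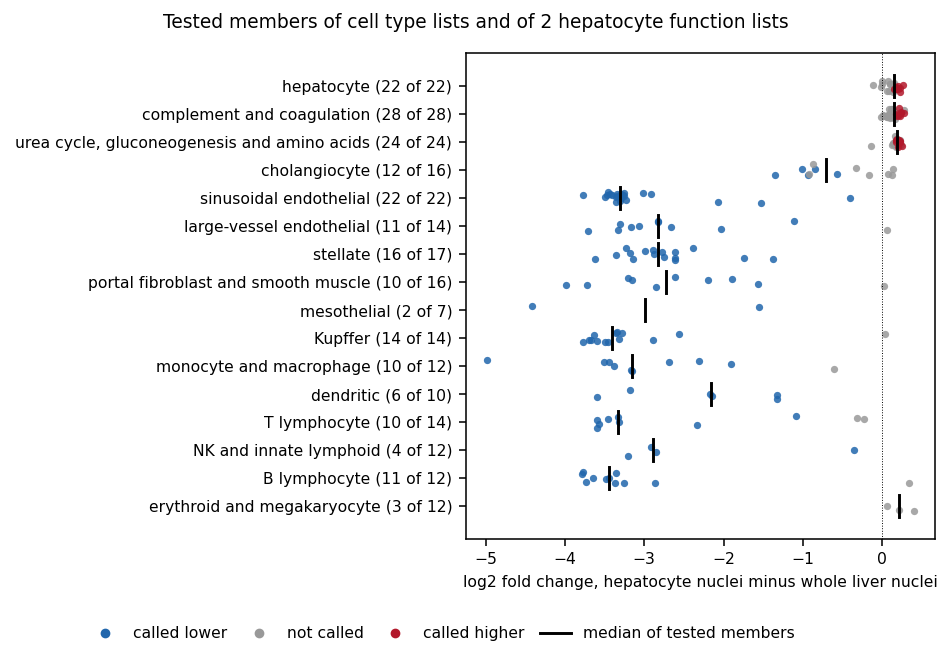
Log2 fold change of hepatocyte over whole liver nuclei for each tested member (points) of 14 cell type lists and 2 hepatocyte function lists, with the number tested of the number measured beside each name and the list median as a bar. Sinusoidal endothelial, Kupffer and B lymphocyte medians lie at -3.30, -3.40 and -3.44, the hepatocyte median at 0.15 and the cholangiocyte median between them at -0.71.

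Cholangiocyte genes divided into those that fell and those that were not called. Of 12 tested markers 5 were lower and 7 were not called, with a median of -0.71, and the summed level was 476 to 526 CPM in hepatocyte nuclei and 477 to 519 CPM in whole liver nuclei. Bicc1, an RNA-binding protein of tubular epithelia, had 16.9, 22.8, 16.2 and 20.0 CPM in hepatocyte nuclei, against 33.7, 36.8, 38.3 and 43.7 CPM in whole liver nuclei. The groups did not overlap (-1.01, SE 0.09), and Glis3, a zinc finger factor of duct cells, was alike (-0.94, SE 0.08). Spp1, osteopontin, averaged 1.64 ± 0.548 CPM in hepatocyte nuclei and 4.22 ± 0.999 CPM in whole liver nuclei (-1.35, SE 0.17). Pkhd1, the fibrocystin gene that is mutated in a polycystic disease of kidney and liver in people, held most of that sum, with 341, 377, 360 and 324 CPM in hepatocyte nuclei, against 344, 338, 315 and 279 CPM in whole liver nuclei. Pkhd1 was not called (0.14, SE 0.05), and neither was Sox9, a factor of duct and progenitor cells (0.07, SE 0.20).

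**Figure D3:**
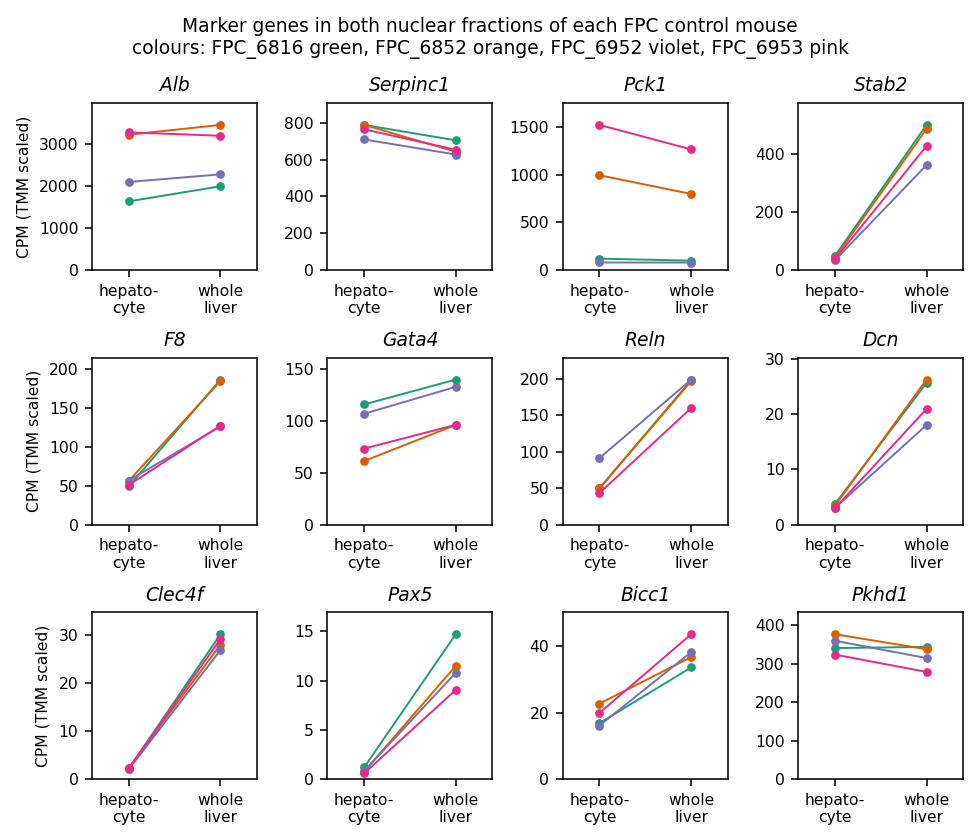
TMM-scaled CPM of 12 marker genes in hepatocyte nuclei (left of each panel) and whole liver nuclei (right), with a line for each of the 4 mice. Stab2, Dcn, Clec4f and Pax5 fall close to 0 in hepatocyte nuclei in every mouse, F8, Reln and Bicc1 keep a part, and Alb, Serpinc1, Pck1, Gata4 and Pkhd1 keep most of their level.

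Promoter sequence of these genes was read to show what the 2 kinds of gene carry at their starts. The windows run from 250 bases before to 50 after the start in the RefSeq table of build GRCm38.p6, and 4 motifs were searched on both strands: GTTAATNAT of the hepatocyte factor HNF1, CAAAGTCCA of HNF4, ACCGGAAGT of the ETS family and GAGGAAGT of PU.1, the product of Spi1. GAGGAAGT and ACCGGAAGT both hold GGAAGT behind different bases, so that a single run of GGAAGT cannot match both. The HNF1 motif was in 11 of 629 promoters of genes called higher (1.75%), in 2 of 1399 of genes at least 2-fold lower (0.143%) and in 56 of 9906 of genes tested (0.565%). In the same groups the PU.1 motif was in 9 (1.43%), 78 (5.58%) and 304 (3.07%) promoters. The ETS motif was in 15 (2.38%), 3 (0.214%) and 210 (2.12%), and the HNF4 motif in 7 (1.11%), 13 (0.929%) and 50 (0.505%). Several of these shares rest on few promoters. Over all 27025 promoters of the table the shares were 0.836% for HNF1, 0.477% for HNF4, 1.10% for ETS and 3.28% for PU.1. Within the cell type lists the HNF1 motif was in 2 of 17 hepatocyte and 1 of 10 cholangiocyte marker promoters, and the PU.1 motif in 1 of 14 sinusoidal endothelial, 1 of 11 Kupffer, 1 of 10 cholangiocyte, 1 of 9 erythroid and megakaryocyte and 3 of 9 neutrophil marker promoters. From these, 5 promoters are shown from 5′ to 3′ on the gene's strand with the motif in capitals: the HNF1 motif in Alb (chr5:90460620-90460919, plus strand), Gc (chr5:89457849-89458148, minus strand), which encodes the vitamin D-binding protein, and Pkhd1 (chr1:20618008-20618307, minus strand), and the PU.1 motif in Eng (chr2:32646345-32646644, plus strand), the endothelial co-receptor endoglin, and C1qc (chr4:136892865-136893164, minus strand), a chain of complement C1q. Alb was set by list order before the search, and Gc, Pkhd1, Eng and C1qc were picked after it. The marker promoters with a motif that are not shown were Spp1, Pf4, S100a8, Mpo and Ly6g for PU.1, and Gpnmb for HNF4. A match is a run of letters and not shown binding, and Apob, Stab2, Kdr, Clec4f, Timd4, Pax5 and Ebf1 held none of the 4 in this window.
Alb: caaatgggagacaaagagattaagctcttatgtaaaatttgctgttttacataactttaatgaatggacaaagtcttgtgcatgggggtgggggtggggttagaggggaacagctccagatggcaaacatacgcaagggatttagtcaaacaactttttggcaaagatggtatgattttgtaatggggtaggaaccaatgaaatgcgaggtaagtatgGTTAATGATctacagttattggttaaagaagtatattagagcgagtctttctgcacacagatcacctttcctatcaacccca
Gc: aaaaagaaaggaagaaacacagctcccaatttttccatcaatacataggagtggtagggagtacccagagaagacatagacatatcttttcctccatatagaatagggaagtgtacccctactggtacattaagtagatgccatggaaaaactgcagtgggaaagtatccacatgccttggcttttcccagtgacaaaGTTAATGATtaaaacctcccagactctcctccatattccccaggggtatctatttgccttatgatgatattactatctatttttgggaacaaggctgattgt
Pkhd1: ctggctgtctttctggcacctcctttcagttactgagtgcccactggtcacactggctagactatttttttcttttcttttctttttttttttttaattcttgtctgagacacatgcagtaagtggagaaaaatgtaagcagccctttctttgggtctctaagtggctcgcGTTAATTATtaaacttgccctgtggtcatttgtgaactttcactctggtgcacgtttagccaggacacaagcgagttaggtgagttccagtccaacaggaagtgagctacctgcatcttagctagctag
Eng: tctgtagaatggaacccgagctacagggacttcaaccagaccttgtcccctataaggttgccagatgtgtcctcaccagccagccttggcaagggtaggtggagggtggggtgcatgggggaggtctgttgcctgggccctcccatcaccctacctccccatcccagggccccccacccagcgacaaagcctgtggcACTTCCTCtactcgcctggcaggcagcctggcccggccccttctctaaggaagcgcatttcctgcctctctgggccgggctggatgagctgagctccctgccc
C1qc: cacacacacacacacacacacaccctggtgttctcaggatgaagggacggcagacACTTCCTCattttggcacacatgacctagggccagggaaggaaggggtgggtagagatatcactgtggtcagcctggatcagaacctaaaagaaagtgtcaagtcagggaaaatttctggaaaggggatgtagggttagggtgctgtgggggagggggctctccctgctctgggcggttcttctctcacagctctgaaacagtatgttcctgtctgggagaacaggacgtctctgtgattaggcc
The 3 genes shown with the HNF1 motif were not called (-0.12 for Alb, 0.14 for Gc and 0.14 for Pkhd1). Eng and C1qc fell by 3.34 (SE 0.14) and 2.89 (SE 0.37) on the log2 scale. Gc, Pkhd1, Eng and C1qc were picked after their values were seen, so these values cannot test a link between motif and fold change. The first base of the motif lay 32 bases before the start in Alb, 52 in Gc, 79 in Pkhd1, 53 in Eng and 195 in C1qc.

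Transcription factors that define the other cell types were lower as well. Of 27 such factors 23 were tested, 19 were lower (82.6%, against 18.5% of all genes tested) and none was higher, with a median of -3.34. Zeb2, a repressor that maintains the identity of Kupffer cells, had 24.5, 19.7, 15.7 and 20.8 CPM in hepatocyte nuclei, against 246, 218, 158 and 198 CPM in whole liver nuclei (-3.34, SE 0.06). Spi1 fell by 3.38 and Erg, an ETS factor of endothelium, by 3.43, with no overlap in either. Zeb1, a relative of Zeb2, was not called and averaged 706 ± 83.9 CPM in hepatocyte nuclei and 693 ± 16.9 CPM in whole liver nuclei (0.02, SE 0.07). Meis2, a homeobox factor, and Maf, a leucine zipper factor of macrophages and endothelium, fell in part, by 1.43 (SE 0.11) and 1.29 (SE 0.09).

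Matrix genes were mostly depleted, with some exceptions of high level. Among 22 collagen genes, all tested, 15 were lower (68.2%, against 18.5% of all genes tested) and none higher, with a median of -2.76. Among 24 tested matrix proteins and proteases 20 were lower (83.3%) and 1 higher (4.17%, against 6.51% of all genes tested), with a median of -2.68. Col3a1, a fibrillar collagen, had 2.02, 2.15, 1.32 and 2.85 CPM in hepatocyte nuclei, against 15.2, 14, 17.3 and 19.2 CPM in whole liver nuclei, or 12.7% of the whole liver mean. Col4a1, a basement membrane collagen, had 10.7, 6.58, 23.3 and 15.8 CPM in hepatocyte nuclei, against 31.1, 26.1, 38.7 and 34.3 CPM in whole liver nuclei, a smaller difference (-1.30, SE 0.17) with no overlap. Col18a1, the source of endostatin, averaged 1065.2 ± 104 CPM in hepatocyte nuclei and 943 ± 210 CPM in whole liver nuclei and was not called. The 1 matrix gene that rose was Fn1, which encodes fibronectin, a plasma protein made by hepatocytes, with 1469.4 ± 319 CPM in hepatocyte nuclei and 1303.4 ± 283 CPM in whole liver nuclei (0.17, SE 0.04).

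In the WNT list 7 of 23 tested genes were lower (30.4%, against 18.5% of all genes tested) and 1 was higher (4.35%, against 6.51%), with a median of -0.04. Among those called were ligands that sinusoidal and central vein endothelium supply to pericentral hepatocytes, which fell: Wnt2 by 3.23 (SE 0.20), Wnt9b by 2.22 (SE 0.22) and Rspo3 by 2.83 (SE 0.09) on the log2 scale. Rspo3 had 4.28, 5.17, 2.97 and 3.32 CPM in hepatocyte nuclei, against 33.8, 32.7, 21.7 and 23.6 CPM in whole liver nuclei. Lgr4, the receptor of R-spondins on hepatocytes, had 326, 393, 400 and 592 CPM in hepatocyte nuclei, against 300, 342, 336 and 487 CPM in whole liver nuclei. Its groups overlapped, but each hepatocyte library exceeded that of its own mouse, and the rise of 0.21 (SE 0.05) was called.

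In the BMP and TGF-beta list 14 of 27 tested genes were lower (51.9%) and none higher, with a median of -0.39, and in the iron and hepcidin list 4 of 15 were lower (26.7%) and 2 higher (13.3%), with a median of 0.06. Bmp6 and Bmp2, the endothelial ligands that drive hepcidin, fell by 3.30 (SE 0.10) and 3.15 (SE 0.16). Bmp6 had 10.1, 8.58, 4.89 and 5.94 CPM in hepatocyte nuclei, against 98.9, 69.0, 62.3 and 57.3 CPM in whole liver nuclei. Hamp, which encodes hepcidin, had 166, 144, 159 and 131 CPM in hepatocyte nuclei, against 133, 109, 139 and 119 CPM in whole liver nuclei. The groups overlapped, and Hamp was higher in 4 of 4 mice by a mean of 0.26 (SE 0.06), as was Tfr2, a sensor of iron-loaded transferrin (0.26, SE 0.07). Smad6, an inhibitor that BMP signalling induces, was lower in hepatocyte nuclei, at 57.5 ± 16.3 CPM against 96.9 ± 12.7 CPM in whole liver nuclei (-0.78, SE 0.09).

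Of 40 tested growth factor and receptor genes 17 were lower (42.5%, against 18.5% of all genes tested) and 6 higher (15%, against 6.51%), with a median of -0.12. Hgf, hepatocyte growth factor from stellate and endothelial cells, averaged 5.0 ± 1.42 CPM in hepatocyte nuclei and 44.1 ± 9.72 CPM in whole liver nuclei (-3.16, SE 0.12), whereas its receptor Met averaged 355 ± 37.1 CPM in hepatocyte nuclei and 321 ± 13.2 CPM in whole liver nuclei and was not called. In the insulin-like pair the ligand was not called and the receptor fell: Igf1, the hormone that the liver secretes, averaged 588 ± 177 CPM in hepatocyte nuclei and 577 ± 193 CPM in whole liver nuclei (0.03, SE 0.05). Its receptor Igf1r had 11, 11.5, 7.38 and 11.4 CPM in hepatocyte nuclei, against 62.9, 66.9, 50.5 and 57.5 CPM in whole liver nuclei, with no overlap (-2.54, SE 0.08). Vegfa, the ligand of Kdr, rose by 0.27 (SE 0.07). Axl, a receptor for the bridging ligand encoded by Gas6, fell by 3.41 (SE 0.12), while Gas6 and the related receptor gene Mertk fell less, by 0.68 (SE 0.15) and 0.92 (SE 0.07).

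**Figure D4:**
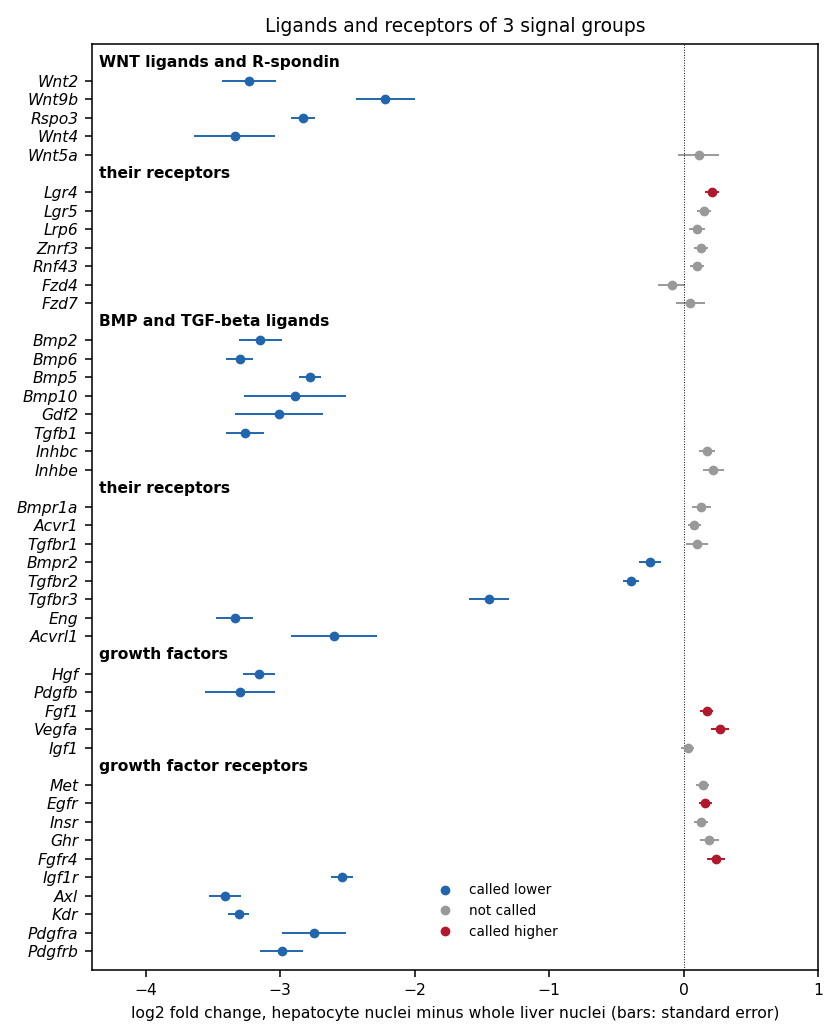
Log2 fold change of hepatocyte over whole liver nuclei, with standard errors as bars, for ligands and receptors of 3 signal groups in the 4 FPC control mice. Wnt2, Rspo3, Bmp6 and Hgf lie between -3.30 and -2.83, while Lgr4, Lgr5, Met and Egfr lie between 0.14 and 0.21. Igf1 and Igf1r run the other way, at 0.03 and -2.54. The receptor genes Eng, Kdr and Axl were also called lower and the ligand gene Vegfa higher, so ligands and receptors do not divide by direction.

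The Notch list of ligands, receptors, cofactors and targets, a pathway that patterns ducts and vessels, had 8 of 14 tested genes lower (57.1%) and none higher, with a median of -0.52. Dll4, an endothelial Notch ligand, fell by 3.07 (SE 0.17), Notch1 by 0.55 (SE 0.12) and Jag1, a ligand of ducts and portal mesenchyme, by 0.50 (SE 0.09). Notch2 was not called and averaged 236 ± 4.66 CPM in hepatocyte nuclei and 224 ± 12.2 CPM in whole liver nuclei. Of 17 antigen presentation genes, all tested, 11 were lower (64.7%), none was higher and 6 were not called, with a median of -2.91. H2-Ab1, a chain of MHC class II, the complex of B cells and macrophages, had 0.311, 0.293, 0.241 and 0.327 CPM in hepatocyte nuclei, against 4.02, 2.68, 2.35 and 3.64 CPM in whole liver nuclei (-3.41, SE 0.21). B2m, the light chain of class I that nearly all cells make, averaged 65.0 ± 4.73 CPM in hepatocyte nuclei and 79.7 ± 4.78 CPM in whole liver nuclei (-0.30, SE 0.05). Among innate sensors and cytokine receptors 12 of 26 tested genes were lower (46.2%) and none higher, with a median of -0.16. Tlr4, the lipopolysaccharide receptor, averaged 0.26 ± 0.193 CPM in hepatocyte nuclei and 2.72 ± 0.532 CPM in whole liver nuclei. The acute phase receptors Il6ra and Il1r1, for interleukins that act on hepatocytes, were not called at 129 ± 27 and 384 ± 63.5 CPM in hepatocyte nuclei, against 116 ± 17.1 and 352 ± 39.5 CPM in whole liver nuclei.

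General lists other than the cell cycle list had few calls, beside 18.5% of all genes tested called lower and 6.51% called higher. Of 29 tested ribosomal protein genes 1 was called, Rpl5, a protein of the large subunit, with 41.7, 57.8, 77.8 and 67.9 CPM in hepatocyte nuclei, against 41.0, 39.6, 40.8 and 45.3 CPM in whole liver nuclei. Its rise of 0.53 (SE 0.12) was almost absent in mouse FPC_6816, and the list median was -0.04. Oxidative phosphorylation genes had 1 of 25 members higher, with a median of 0.06, and replication-dependent histone genes had none of 7 tested members called. The proliferation gene Mki67 had 1.59, 0.83, 2.17 and 2.48 CPM in hepatocyte nuclei, against 6.05, 3.41, 3.92 and 4.05 CPM in whole liver nuclei (-1.33, SE 0.24). In the cell cycle list 5 of 15 tested genes were lower (33.3%) and none higher, with a median of -0.75. Its 20 measured members summed to only 21.2 to 25.4 CPM in whole liver nuclei. Of all genes tested at means of 1 to 3 CPM, 39.2% were called lower, and the list was not set against genes of like level. Of 13 tested immediate early and stress genes 1 was lower and none higher, and the list median by mouse ran from -0.51 in FPC_6952 to 0.24 in FPC_6816. The unfolded protein and integrated stress list had 2 of 17 tested genes higher (11.8%) and 1 lower (5.88%), Calr, with a median of 0.11.

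Over all genes, the 10 largest called falls with a mean of at least 1 CPM and 1 direction in all 4 mice were led by Slamf6, a lymphocyte receptor, at -4.81 (SE 0.33). Tal1, a factor of blood and endothelial lineages, and Il13ra2, a decoy receptor for interleukin 13, both reached -4.58 (SE 0.30 and 0.41), and Cd72, a B cell co-receptor, -4.51 (SE 0.28). Slamf6 averaged 0.065 ± 0.0249 CPM in hepatocyte nuclei and 1.97 ± 0.453 CPM in whole liver nuclei, so these values rest on few counts in the hepatocyte libraries. The 10 largest called rises were led by Gm11992, a predicted gene, at 0.64 (SE 0.19), followed by Rpl5. Rgs16, a regulator of G protein signals, rose by 0.42 (SE 0.10) and again followed the mouse, with 13.8, 28.3, 2.21 and 1.36 CPM in hepatocyte nuclei, against 9.77, 22.8, 1.66 and 0.834 CPM in whole liver nuclei. Sdsl, a serine dehydratase homologue, rose by 0.41 (SE 0.12).

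The controls of the CDAHFD arm gave the same picture in other mice, with a reservation on their labels. Their hepatocyte library labelled Control_9862 deviated with the whole liver library labelled Control_9867 (r = 0.93 across 9332 genes) and the hepatocyte library labelled Control_9867 with the whole liver library labelled Control_9862 (r = 0.85), while each had a negative r with its own number (-0.25 and -0.34). Counts, medians and tests of these controls are therefore given as labelled and with those 2 mice exchanged. As labelled, 1944 of 12839 tested genes were lower (15.1%) and 250 higher (1.95%); with the exchange, 2725 were lower and 2870 higher. Genes lower in both arms numbered 1839 as labelled, which is 77.4% of the FPC list and 94.6% of the CDAHFD list, and 2177 with the exchange, 91.6% and 79.9%. Genes higher in both numbered 68 as labelled, 8.14% of the FPC list and 27.2% of the CDAHFD list, and 702 with the exchange, 84.1% and 24.5%. Across the 12631 genes tested in both arms the fold changes had a Pearson r of 0.96 with either pairing, a description over genes, which are not independent replicates.

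Sinusoidal endothelial markers had a median of -3.30 in FPC and -3.69 in CDAHFD controls (-3.67 with the exchange), Kupffer markers of -3.40 in FPC and -3.79 in CDAHFD controls (-3.80), and stellate markers of -2.83 in FPC and -3.21 in CDAHFD controls (-3.20). Each median is over the members tested in that arm: 14 Kupffer markers in FPC and 13 in CDAHFD controls, and 16 and 17 stellate markers. As labelled, edgeR called no gene of these 3 lists in the test of the difference between the arms, whereas with the exchange edgeR, and as labelled DESeq2, called Mrc1, the mannose receptor of sinusoidal endothelium, and Vsig4 and Adgre1, receptors of Kupffer cells. Without the CDAHFD mouse Control_9867 edgeR called Vsig4, and without Control_10110 Mrc1. As labelled, Mrc1 was at -3.41 in FPC and -4.21 in CDAHFD controls, Vsig4 at -3.45 in FPC and -4.79 in CDAHFD controls, and Adgre1 at -3.69 in FPC and -4.70 in CDAHFD controls. These 3 genes were named after their values were seen. That test called 2 of 13270 genes (0.0151%), with 637 at an unadjusted p below 0.05; DESeq2 called 31, and edgeR 49 with the exchanged pairing and none without the mouse block. Leaving out the CDAHFD mouse Control_9862, Control_9867 or Control_10110 gave 9, 8 and 8 genes, and leaving out any other mouse gave 2.

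The 2 genes were Fam19a2, which encodes a small secreted chemokine-like protein, and Adamtsl1, which encodes a matrix protein related to the ADAMTS proteases. Fam19a2 had 37.4, 35.5, 13.2 and 5.57 CPM in hepatocyte nuclei of FPC controls, against 44.8, 37.7, 14.9 and 6.79 CPM in their whole liver nuclei. In CDAHFD controls it had 1.1, 0.725, 0.683 and 0.742 CPM in hepatocyte nuclei, against 6.24, 7.21, 5.68 and 7.08 CPM in whole liver nuclei. Both fractions of FPC controls FPC_6816 and FPC_6852 were high, the lowest FPC whole liver value lay within the whole liver range of the CDAHFD controls, and the CDAHFD hepatocyte nuclei alone were near 1 CPM. The fraction difference was higher in FPC than in CDAHFD controls by 2.82 on the log2 scale (SE 0.18, adjusted p = 0.00025 by edgeR as labelled; SE 0.15, adjusted p = 4.7e-07 with the exchange). Adamtsl1 had 41.8, 17.7, 14.3 and 14.6 CPM in hepatocyte nuclei of FPC controls, against 44.6, 20.8, 18.8 and 16.3 CPM in their whole liver nuclei. In CDAHFD controls its levels were 1.79, 1.93, 3.36 and 2.67 CPM in hepatocyte nuclei, against 6.13, 7.68, 10.9 and 8.81 CPM in whole liver nuclei. Its fraction difference was higher in FPC than in CDAHFD controls by 1.57 (SE 0.13, adjusted p = 0.0017 by edgeR as labelled; SE 0.14, adjusted p = 0.00011 with the exchange). Diet length, age and the arm's batch go together between the 2 sets of controls and cannot be told apart.

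**Figure D5:**
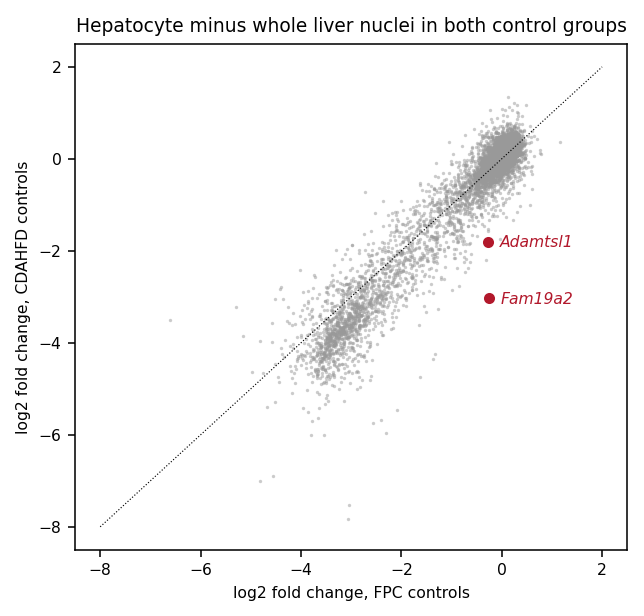
Log2 fold change of hepatocyte over whole liver nuclei in FPC controls (horizontal axis) and CDAHFD controls, paired as labelled (vertical axis), for the 12631 genes tested in both, with the line of equal values. Most depleted genes lie along the line (r = 0.96 across genes), and the 2 genes called in the test of the difference, Fam19a2 and Adamtsl1, lie near 0 in FPC controls only.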

How the data were processed

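The authors deposited raw counts per RefSeq gene for 44 libraries of nuclear RNA from mouse liver, made with a stranded kit without polyadenylated selection and read as 50 bp pairs, per the labels. STAR 2.4.2a, DESeq2 1.24.0 and build mm10 are named in the submitters' processing notes; the counting tool and its strand setting are not given in the sources used here. For 94.7% of 13147 genes with a deposited length the counted length equals the gene length, so introns were counted. Overlapping or near-identical genes could share reads.

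From the 8 FPC control libraries, genes kept by filterByExpr went into the robust quasi-likelihood test of edgeR 4.0.16 under R 4.3.3 with limma 3.58.1, after TMM scaling, with a term for the mouse and 1 for the fraction. P-values were adjusted by Benjamini-Hochberg over the whole table, at a threshold of 0.05. The residual degrees of freedom were 3. The standard error is the log2 fold change over the square root of F. Fractions of 1 mouse were paired: within each mouse their deviations from the group means correlated by 0.58 to 0.81 over 9187 genes, and the highest r with another mouse was 0.1. Libraries of 1 group differed well beyond counting noise, with chi-square per degree of freedom of 45.8 or more.

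Named genes are the first 3 measured of each list, the 3 largest called rises and falls of each list, the 10 largest called rises and falls of all genes at a mean of at least 1 CPM with 1 direction in all 4 mice, and the called genes of the difference between arms; the text leaves some out. Gc, Eng, C1qc and Pkhd1 promoters, and the named genes outside this rule, such as Themis, F8, Zeb1 and Pkhd1, were chosen after their values were seen. The comparison, the gene lists and this rule were chosen with earlier results of these data known, so lists are described by counts and medians without a test. List genes were matched by symbol, 921 of 925; 79 of 20105 identifiers have no symbol. Promoters and sequences come from RefSeq, build GRCm38.p6. The scripts were tested on simulated data. Alternatives were other scalings and filters, DESeq2 1.42.0, no mouse block, all 22 FPC libraries, and each mouse left out.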

Additional observations from a re-analysis of the deposited data

Results flagged for a closer look

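Among the 4 libraries of each fraction, the value of 1 mouse lay far from the other 3 for 8 of the 196 gene and fraction groups examined, where a gap this large is expected in about 1 of 20 groups by chance. Reln, the stellate marker, was at 91.3 CPM in hepatocyte nuclei of mouse FPC_6952, against 43.4 to 50.1 CPM in the other hepatocyte libraries, and at 160 CPM in whole liver nuclei of mouse FPC_6953, against 197 to 199 CPM in the others. Igf1r was at 7.38 CPM in hepatocyte nuclei of mouse FPC_6952, with 11 to 11.5 CPM in the other 3. Dll4 was at 0.842 CPM in hepatocyte nuclei of mouse FPC_6953, with 0.521 to 0.545 CPM in the other 3. Nkd1 was at 24.3 CPM in whole liver nuclei of mouse FPC_6816, with 25.9 to 26.0 CPM in the others, a gap that is small in size. Sdsl was at 5.01 CPM in whole liver nuclei of mouse FPC_6953, with 3.72 to 3.93 CPM in the others. Adamtsl1 was high in both fractions of mouse FPC_6816, at 39.8 CPM in hepatocyte nuclei (13.7 to 17.0 in the other mice) and 45.0 CPM in whole liver nuclei (16 to 20.7 in the other mice), under the scaling of the 8 libraries.

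The difference between the fractions was itself different in FPC and CDAHFD controls for Fam19a2, by 2.82 on the log2 scale, and for Adamtsl1, by 1.57, in edgeR's test of the interaction. Over the fits with a mouse block, mice left out and the exchanged pairing included, Fam19a2 kept an adjusted p of 0.004 or less and Adamtsl1 of 0.022 or less by edgeR. Without the mouse block neither was called (adjusted p = 0.85 and 1 by edgeR).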

How the results depend on the processing

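The 2376 genes lower and the 1857 at least 2-fold lower stayed within 1.5 times of these counts under all 12 alternatives. The 835 genes higher became 1565 with DESeq2's size factors in edgeR, 209 with library totals alone, 35 with scaling to the hepatocyte markers, 1609 with no filter on low counts, 20 with no replicate block, 3069 with all 22 FPC libraries, and 53 to 1165 with a mouse left out; DESeq2 called 1187, and the stricter filter 573. With no replicate block, which ignores the pairing by mouse, 2057 genes were lower and 1828 at least 2-fold lower. The count of genes at least 2-fold higher, 0 by edgeR, was 1 with no filter on low counts, 6 with all 22 FPC libraries and 0 to 2 with a mouse left out. The 2 genes that differed between FPC and CDAHFD controls became 0 with no replicate block, 49 with the exchanged pairing of Control_9862 and Control_9867, 31 with DESeq2 and 2 to 9 with a mouse left out. The cause of these shifts was not tested. No named gene was called in opposite directions under any pair of these fits. Of 61 named genes called lower, 50 kept the call with no replicate block and 56 to 59 with a mouse left out; of 21 called higher, 1 and 4 to 16 did. The hepatocyte libraries held few counts of the most depleted genes, so the size of falls beyond about -4 is limited by depth.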
